A study of Rattus norvegicus with 12 samples.

Results

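The genes described here are 10 components of the basement membrane, namely the collagen IV chains Col4a1, Col4a2 and Col4a5, the laminin chains Lama2, Lama4, Lamb1, Lamb2 and Lamc1, and the linking components Nid1 (nidogen 1) and Hspg2 (perlecan). They were taken by gene symbol from the 18483 genes measured, and all 10 were among the 13967 genes that passed the filter on low counts. RNA was sequenced from neonatal rat ventricular myocytes (NRVMs) of Sprague-Dawley rats, which are primary heart muscle cells kept in culture. All cultures were transfected, either with the control siRNA siNeg or with siSlc39a2, which targets the zinc transporter gene Slc39a2. Each was left untreated or given PE, which makes 4 groups of 3 biological replicates, siNeg and siSlc39a2 without PE and siNeg PE and siSlc39a2 PE with it. PE is phenylephrine, an adrenergic agonist that induces hypertrophy of cardiomyocytes, and per the labels it was given for 36 h from 12 h after transfection, while the study's culture methods state a longer treatment. The study's methods describe a single siRNA sequence against Slc39a2, so effects of the sequence and of the loss of the transporter cannot be told apart.

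The basement membrane is a thin sheet of matrix that surrounds each cardiomyocyte and underlies endothelium. Laminins are trimers of an alpha, a beta and a gamma chain that assemble on the cell surface and bind integrins and dystroglycan, and collagen IV forms a second, covalently linked network that gives the sheet its strength. Nidogen and the heparan sulfate proteoglycan perlecan connect both networks. In muscle the laminin with the alpha 2 chain joins the matrix to the dystrophin complex, and loss of this chain causes a muscular dystrophy.

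Col4a1 and Col4a2 lie head to head in the genome, and in the RefSeq annotation of build GRCr8 their starts are 76 bases apart. Of 16845 genes on the plus strand in the RefSeq promoter table, 348 had a minus-strand start as close or closer upstream. The whole stretch between both starts is shown because no other tested gene had a profile as near to Col4a1 or to Col4a2, with Col4a2 read to the left and Col4a1 to the right. The counting program divided reads between both genes, as described below, so this nearness is uncertain to that extent. The stretch lies at chr16:84885521-84885596 (plus strand), and capitals mark the motif GGGCGG, a GC box, read on either strand.
Col4a2-Col4a1: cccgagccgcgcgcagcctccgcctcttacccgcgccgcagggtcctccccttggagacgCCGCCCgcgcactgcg
The 100 bases before the start are shown for Col4a5, Nid1 and Hspg2, which fell most with the collagens, and for Lamc1 and Lama4, which rose with PE. They lie at chrX:109907259-109907358 (plus), chr17:93069186-93069285 (plus), chr5:154960746-154960845 (plus), chr13:68051987-68052086 (minus) and chr20:43946798-43946897 (plus), and each is written 5′ to 3′ on the strand of its gene.
Col4a5: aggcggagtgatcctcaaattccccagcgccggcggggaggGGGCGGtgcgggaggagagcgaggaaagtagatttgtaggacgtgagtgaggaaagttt
Nid1: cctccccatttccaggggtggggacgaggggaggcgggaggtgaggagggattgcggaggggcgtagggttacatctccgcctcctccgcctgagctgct
Hspg2: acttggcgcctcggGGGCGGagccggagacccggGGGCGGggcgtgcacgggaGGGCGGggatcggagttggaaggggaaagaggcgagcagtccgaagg
Lamc1: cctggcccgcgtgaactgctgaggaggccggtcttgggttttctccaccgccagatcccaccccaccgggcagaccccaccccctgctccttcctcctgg
Lama4: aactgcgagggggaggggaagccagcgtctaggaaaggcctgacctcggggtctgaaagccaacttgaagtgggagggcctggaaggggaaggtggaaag

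The promoter table held 9 of the 10 genes (not Lamb2), each as a window of 300 bases that reaches 50 bases past the start. GGGCGG was in 8 of these 9 windows and in 33.1% of all 33469 promoters, and Lama4 was the gene without it. The stretches shown above were between 60.0% and 78.9% G or C, against 52.7% over all windows. The part of base composition in the GGGCGG matches was not tested. CCAAT was in 4 of 9 against 37.5% of all, and TATAAA was in 1 of 9 (Lama4) against 14.2%. TGANTCA, the letters bound by AP-1 factors, was in 7.33% of all promoters and in 0 of the 9 windows, and the core of the interferon-stimulated response element was in 3.92% of all and in 0 of the 9. All motifs were read on both strands, and the Col4a1 and Col4a2 windows share 176 bases, so they are not separate counts. These matches describe letters in a window and were not tested for binding.

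Total counts per sample were between 24065539 and 28603854. Slc39a2 itself had few reads, with 50, 50 and 59 counts in siNeg, 95, 198 and 182 in siNeg PE, 21, 11 and 2 in siSlc39a2 and 31, 25 and 38 in siSlc39a2 PE. It was lower after knockdown both without PE (log2 fold change -2.35, adjusted p = 9.8e-04 from edgeR's quasi-likelihood test) and with PE (-2.33, adjusted p = 2.24e-04). Replicate 1 of siNeg was the lowest siNeg sample for all 10 basement membrane genes, and 49.2% of all tested genes were lowest there. Replicate 1 of siNeg PE was the lowest of its group for 9 of 10 genes, against 45.8% of all tested genes, and replicate 1 of siSlc39a2 PE for 8 of 10, against 41.2%. Without siNeg replicate 1 the knockdown effects without PE kept their direction and their call for all 10 genes.

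Levels per gene length are given in FPKM, the authors' fragment counts scaled to gene length and library size. In siNeg the 10 genes ranged from Col4a1 with 343 ± 34.9 (SD, n = 3) to Col4a5 with 26.7 ± 2.33 FPKM. Col4a1 and Col4a2 overlapped at the top of this order, followed by Lamb2, Lamc1, Hspg2 and Lamb1, and the pairs of neighbours Hspg2 and Lamb1, Lama2 and Lama4, and Lama4 and Nid1 overlapped as well. In siSlc39a2 the order changed. Lamb2 stood first with 179 ± 11.6 FPKM, and Col4a1 (148 ± 2.57) overlapped with Lamc1 (148 ± 5.96). In siSlc39a2 PE, Lamc1 was the highest of the 10 with 305 ± 5.67 FPKM and did not overlap with Col4a1, the next gene, at 258 ± 5.79. Summed over the 10 genes, the share of all counts was 1.02% ± 0.121 in siNeg and 0.585% ± 0.0211 in siSlc39a2, and with PE it was 1.22% ± 0.127 and 0.831% ± 0.0156 (SD, n = 3 each).

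**Figure D1:**
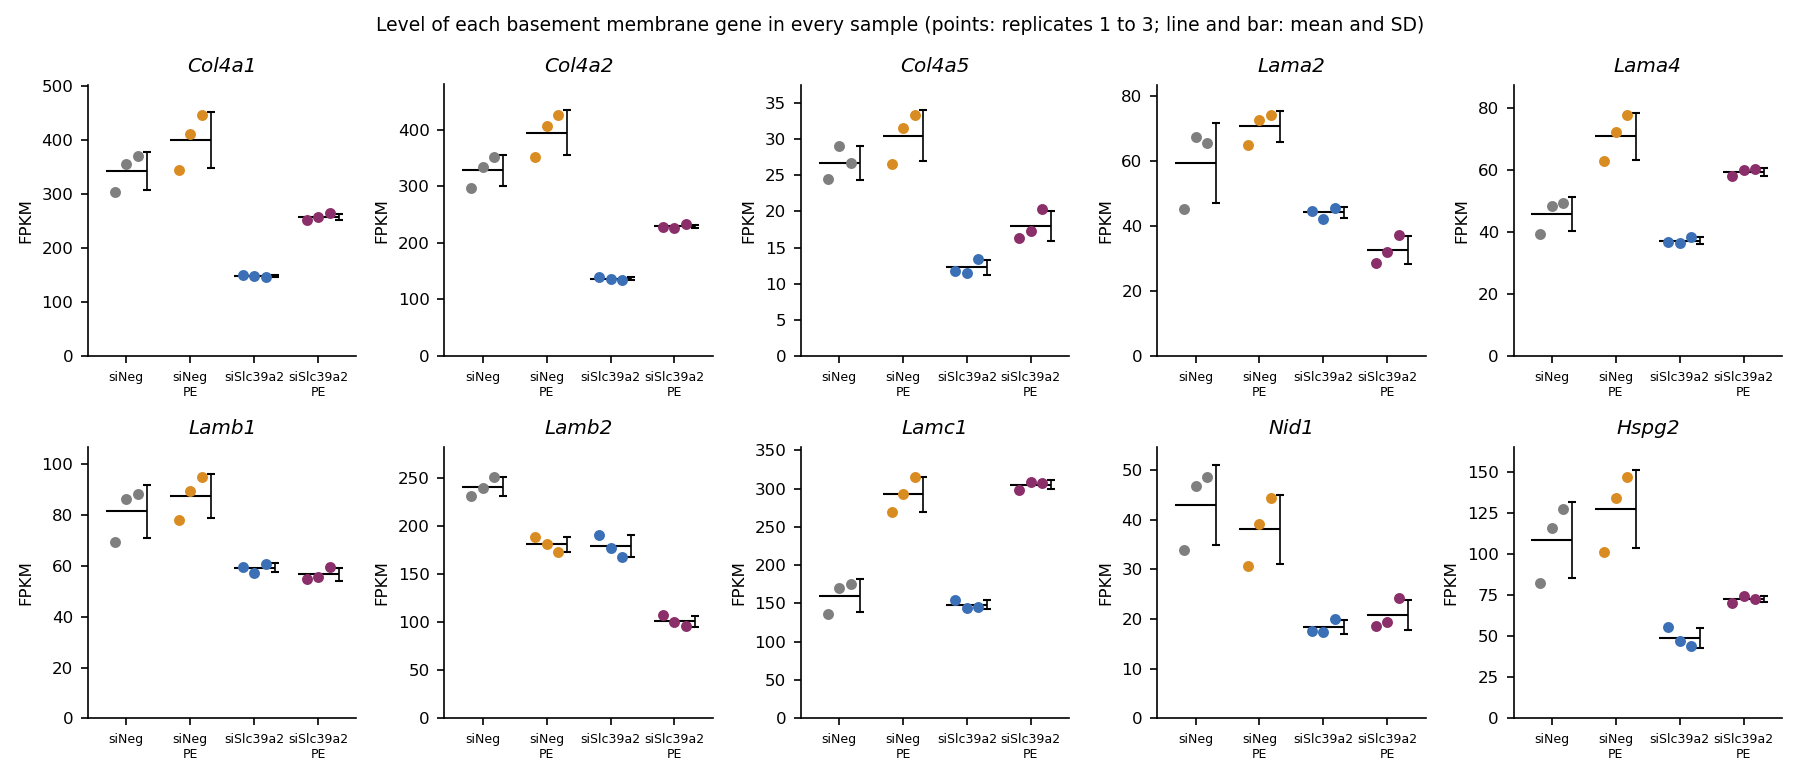
Level of each of the 10 genes in FPKM (y axis, from 0) in every sample of the 4 groups (x axis), with points for replicates 1 to 3 and a line and bar for the mean and SD. Col4a1 lies between 303 and 369 FPKM in siNeg and between 145 and 151 in siSlc39a2, while Lamc1 rises with PE in both transfections.

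After knockdown without PE, all 10 genes fell. Over all genes tested, 26.4% were called lower in this comparison at an adjusted p below 0.05. Past a log2 fold change of -1 there were 5 of the 10 genes (Col4a1, Col4a2, Col4a5, Nid1 and Hspg2), against 5.21% of all genes. The median log2 fold change was -0.94 over the 10 genes and -0.02 over all tested. Scaled counts of 9 of the 10 genes did not overlap between the groups, with 30.6% of all genes lower without overlap, and the exception was Lamc1. With PE in both groups, 9 of 10 were lower after knockdown (28.1% of all genes), 1 of them past a log2 fold change of -1 (Lama2; 5.58% of all), and Lamc1 did not pass. The same 9 did not overlap between the groups, with 31.7% of all genes lower without overlap. The median was -0.78 against 0.01 over all genes. RNA of whole cultures was measured, so fewer cells of a type and less RNA per cell cannot be told apart.

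PE moved fewer of these genes in siNeg cells, and in both directions. Of the 10, 3 were higher (24.0% of all genes) and 1 was lower (25.7% of all), and none of the 4 was past a log2 fold change of 1 in size (3.8% of all genes higher and 2.8% lower past it). For 3 genes the groups did not overlap (Lama4, Lamb2 and Lamc1), against 59.8% of all genes in either direction. In siSlc39a2 cells 6 were higher (30.7% of all genes) and 2 lower (29.3%), and Lamc1 alone was past a log2 fold change of 1 in size (6.34% of all genes higher and 4.17% lower past it). For 8 genes the groups did not overlap, all but Lamb1 and Nid1, against 65.2% of all genes. The comparisons with siNeg share the 3 siNeg samples, and those with siSlc39a2 PE share its 3 samples, so their values are set side by side and not counted as separate evidence.

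**Figure D2:**
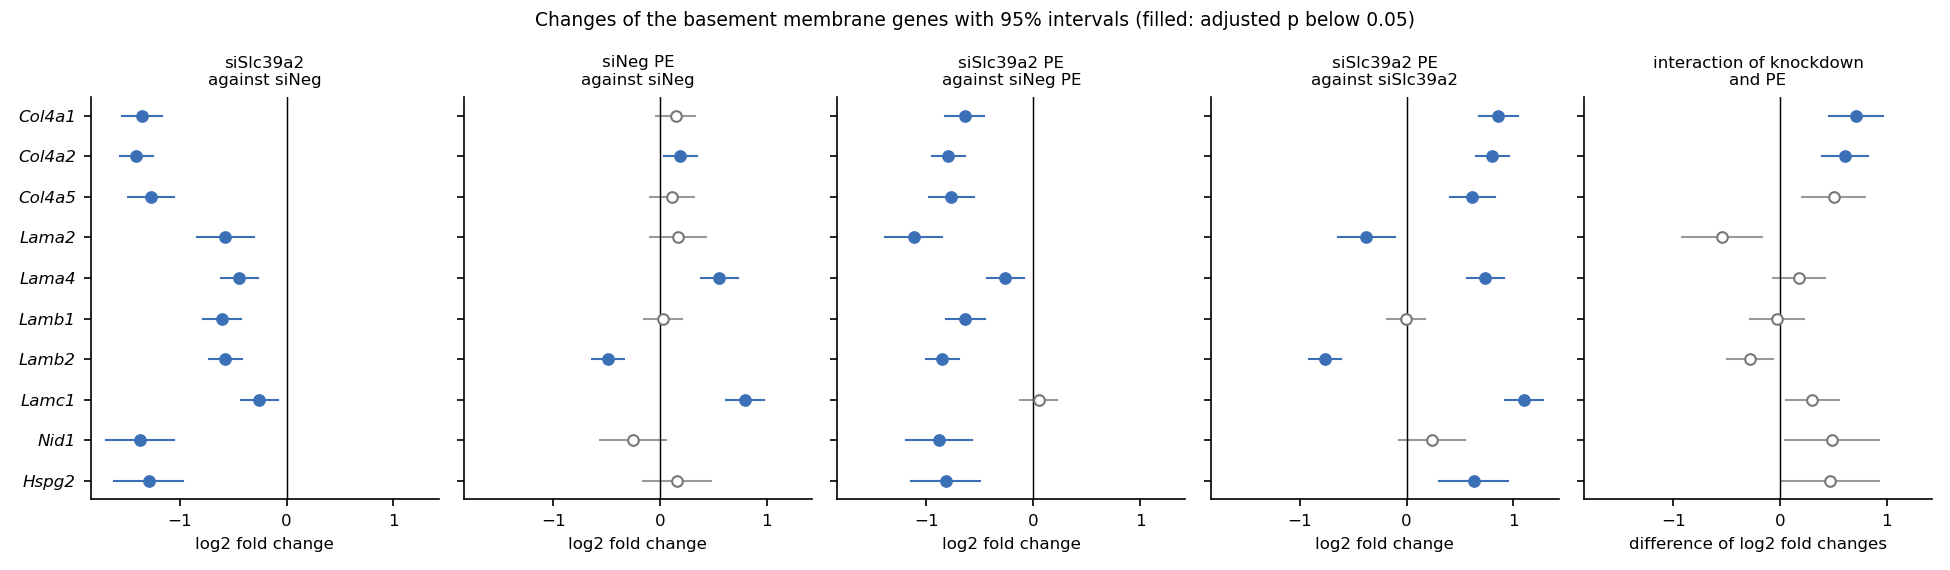
Log2 fold changes of the 10 genes (x axis) with 95% intervals in the 4 comparisons and in the interaction of knockdown and PE, by edgeR's quasi-likelihood test. Filled points passed an adjusted p below 0.05, which holds for all 10 genes in siSlc39a2 against siNeg and for Col4a1 and Col4a2 in the interaction.

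Among the collagen IV chains, Col4a1 and Col4a2 form the common trimer found in nearly all basement membranes. Col4a1 had 303, 356 and 369 FPKM in siNeg, 344, 410.2 and 447 in siNeg PE, 151, 148 and 145 in siSlc39a2, and 253, 257 and 264 in siSlc39a2 PE. The knockdown groups did not overlap with their controls, and PE set siSlc39a2 samples apart but not siNeg samples. The knockdown lowered Col4a1 by a log2 fold change of -1.35 (SE 0.0855, adjusted p = 4.6e-08) without PE, where the level fell by 60.9%, and by -0.64 (SE 0.0843, adjusted p = 3.99e-05) with PE. PE raised it by 0.86 (SE 0.0846, adjusted p = 4.73e-06) in siSlc39a2 cells, and the change in siNeg cells was 0.15 (95% interval -0.04 to 0.33, adjusted p = 0.161).

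Col4a2 followed Col4a1 closely. It had 298, 334 and 352 FPKM in siNeg, 351, 407 and 426 in siNeg PE, 139, 137 and 134 in siSlc39a2, and 228, 227 and 233 in siSlc39a2 PE. The samples of siNeg and siNeg PE overlapped, and no others did. The knockdown effect was -1.41 (SE 0.0721, adjusted p = 6e-09) without PE and -0.80 (SE 0.0711, adjusted p = 1.39e-06) with PE. PE raised Col4a2 by 0.80 (adjusted p = 1.97e-06) in siSlc39a2 cells and by 0.19 (SE 0.0707, adjusted p = 0.0391) in siNeg cells, and the latter call was lost in 4 of the 6 fits that left out 1 sample, each without siNeg replicate 1 or 2 or siNeg PE replicate 2 or 3 (adjusted p from 0.0709 to 0.159). Expected counts of both genes were not whole in any of the 12 samples while their sum was whole in all 12 (tolerance 0.005), so the counting program divided reads between them, and values of each chain alone are uncertain to that extent. Counts of the other 8 genes were whole in all 12 samples.

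Col4a5, a chain of more restricted trimers, was the lowest of the 10 genes. It had 24.4, 29.1 and 26.6 FPKM in siNeg, 26.5, 31.5 and 33.4 in siNeg PE, 11.8, 11.5 and 13.5 in siSlc39a2, and 16.4, 17.3 and 20.4 in siSlc39a2 PE. Both knockdown groups lay below both control groups. The knockdown effect was -1.27 (adjusted p = 3.66e-07) without PE and -0.77 (adjusted p = 3.04e-05) with PE, and PE raised Col4a5 by 0.62 (adjusted p = 2.01e-04) in siSlc39a2 cells, with 0.11 (adjusted p = 0.347) in siNeg cells.

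The main collagen IV chains were called in the interaction of knockdown and PE. In this value, the knockdown effect with PE less that without PE, Col4a1 had a value of 0.71 (SE 0.119, adjusted p = 0.00512) and Col4a2 of 0.61 (SE 0.1, adjusted p = 0.00462) on the log2 scale. These were the 2 of 10 genes called, both higher, with 1.73% of all genes called higher and 1.88% lower. Both calls were lost in limma on log2(FPKM + 0.1), at adjusted p of 0.0704 and 0.0652. For Col4a5 the value was 0.50 (95% interval 0.21 to 0.80, adjusted p = 0.0649). Nid1 had 0.49 (adjusted p = 0.256), Hspg2 0.47 (adjusted p = 0.293) and Lamc1 0.30 (adjusted p = 0.205), and Lama2 had -0.55 (95% interval -0.92 to -0.17, adjusted p = 0.117). None of these 5 genes passed edgeR's test in the main fit. With replicate number added to the model, the same test called Col4a5 (adjusted p = 0.0084), Nid1 (0.0224) and Lama2 (0.0238). DESeq2 called Col4a5 (adjusted p = 0.022) and Lama2 (0.0347). The edgeR intervals leave room for differences of the size seen in Col4a1 for Col4a5, Nid1 and Hspg2. Lama4 (0.18), Lamb1 (-0.03) and Lamb2 (-0.28) did not pass either, at adjusted p of 0.491, 0.936 and 0.174.

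**Figure D3:**
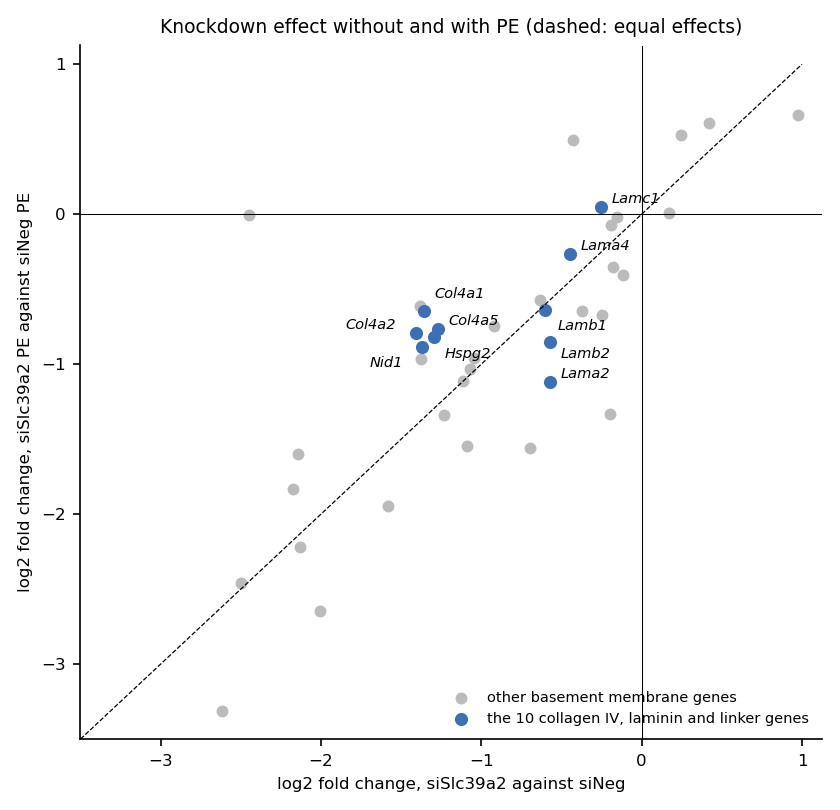
Knockdown effect as a log2 fold change, in cells without PE (x axis) and with PE (y axis), for the 10 genes and the 30 other basement membrane genes tested, with a dashed line where both are equal. Col4a1, at -1.35 without PE and -0.64 with PE, lies above the line, and Lama2, at -0.57 and -1.12, lies below it.

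The laminin alpha chains differed in their response. Lama2 encodes the alpha chain of the muscle laminin, and it had 45.3, 67.6 and 65.7 FPKM in siNeg, 65.1, 72.6 and 74.3 in siNeg PE, 44.8, 42.3 and 45.7 in siSlc39a2, and 28.8, 32.2 and 37.4 in siSlc39a2 PE. On this scale siNeg replicate 1 lay within the siSlc39a2 samples, and siSlc39a2 PE lay below every other sample. The knockdown lowered Lama2 by -0.57 (SE 0.123, adjusted p = 0.00197) without PE and by -1.12 (SE 0.124, adjusted p = 9.68e-06) with PE, where the level fell by 53.9%. PE lowered it in siSlc39a2 cells by -0.38 (adjusted p = 0.018), a call lost without siSlc39a2 PE replicate 1 or 2 or siSlc39a2 replicate 1 (adjusted p from 0.0516 to 0.0551). In siNeg cells PE gave 0.17 (adjusted p = 0.264).

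Lama4, the alpha chain typical of vessels and of developing muscle, had 39.4, 48.4 and 49.4 FPKM in siNeg, 62.7, 72 and 77.7 in siNeg PE, 36.6, 36.3 and 38.4 in siSlc39a2, and 57.8, 60 and 60.25 in siSlc39a2 PE. Samples with PE lay above those without in both transfections. PE raised it by 0.56 (SE 0.0804, adjusted p = 1.7e-04) in siNeg and by 0.74 (adjusted p = 1.15e-05) in siSlc39a2 cells. The knockdown effects were among the smallest of the 10 genes, -0.44 (adjusted p = 5.95e-04) without PE and -0.26 (adjusted p = 0.0128) with PE. The latter was -0.20 (adjusted p = 0.0624) without siNeg PE replicate 3.

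Of the laminin beta chains, Lamb1 is the widespread one and Lamb2 is the chain of adult muscle and the neuromuscular synapse. Lamb1 had 69.6, 86.4 and 88.3 FPKM in siNeg, 77.9, 89.3 and 95 in siNeg PE, 59.8, 57.3 and 60.7 in siSlc39a2, and 54.9, 55.5 and 59.7 in siSlc39a2 PE. All knockdown samples lay below all control samples, and PE did not separate them. The knockdown lowered Lamb1 by -0.60 (adjusted p = 6.57e-05) without PE and by -0.64 (adjusted p = 3.84e-05) with PE, while the PE effects were 0.03 (95% interval -0.15 to 0.21) and -0.01 (-0.18 to 0.17).

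Lamb2 was lowered by both treatments. It had 232, 240.5 and 252 FPKM in siNeg, 189, 182 and 173 in siNeg PE, 191, 178 and 168 in siSlc39a2, and 108, 100.1 and 96.4 in siSlc39a2 PE. Samples with either treatment lay at similar levels and those with both lay lowest. The knockdown effect was -0.57 (adjusted p = 2.64e-05) without PE and -0.85 (adjusted p = 7.1e-07) with PE, and the PE effect was -0.49 (SE 0.0704, adjusted p = 1.67e-04) in siNeg and -0.77 (adjusted p = 2.73e-06) in siSlc39a2 cells.

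Lamc1, the gamma chain of most laminins, showed the largest rise with PE among the 10 genes. It had 136, 170.4 and 175 FPKM in siNeg, 269.9, 293 and 315 in siNeg PE, 155, 144 and 146 in siSlc39a2, and 299, 309 and 308 in siSlc39a2 PE. PE samples lay above all others, and the siRNA did not separate them. PE raised Lamc1 by 0.79 (SE 0.0815, adjusted p = 1.27e-05) in siNeg and by 1.10 (SE 0.0819, adjusted p = 4.22e-07) in siSlc39a2 cells. The knockdown effect was -0.25 (SE 0.0811, adjusted p = 0.0197) without PE, with overlapping groups, and 0.05 (95% interval -0.13 to 0.22, adjusted p = 0.621) with PE. The call without PE was lost without siNeg replicate 2 or 3 or siSlc39a2 replicate 2 or 3 (adjusted p from 0.0616 to 0.142) and in limma on FPKM (0.305).

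Both linking components fell after knockdown. Nid1, which binds the laminin gamma chain and collagen IV, had 33.8, 46.7 and 48.6 FPKM in siNeg, 30.6, 39.1 and 44.4 in siNeg PE, 17.6, 17.5 and 20 in siSlc39a2, and 18.6, 19.4 and 24.2 in siSlc39a2 PE. All knockdown samples lay below all control samples. The knockdown lowered Nid1 by -1.37 (SE 0.146, adjusted p = 7.12e-06) without PE and by -0.88 (adjusted p = 2.21e-04) with PE, and the PE effects, -0.25 (adjusted p = 0.156) and 0.24 (adjusted p = 0.172), did not pass. Without siNeg replicate 1 the PE effect in siNeg cells was -0.38 (adjusted p = 0.0388).

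Hspg2 encodes perlecan, which carries heparan sulfate chains. It had 82.3, 116 and 127 FPKM in siNeg, 101, 134 and 147 in siNeg PE, 55.5, 47 and 43.7 in siSlc39a2, and 70.4, 74.4 and 72.7 in siSlc39a2 PE. The groups with siSlc39a2 lay below both control groups and did not overlap with each other. The knockdown effect was -1.29 (SE 0.151, adjusted p = 1.64e-05) without PE and -0.82 (SE 0.149, adjusted p = 4.86e-04) with PE. PE raised Hspg2 by 0.63 (adjusted p = 0.00295) in siSlc39a2 cells, with 0.16 (adjusted p = 0.389) in siNeg cells.

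Ratios of FPKM within each sample show how chains of one kind moved against each other. Knockdown and PE were each tested by an exact permutation test over samples within the other factor (400 arrangements, smallest possible p 0.005, two-sided), adjusted over 6 tests. The ratio of Col4a1 to Col4a2 was 1.04 ± 0.023 in siNeg and 1.01 ± 0.0342 in siNeg PE, and 1.08 ± 0.00245 and 1.13 ± 0.0145 in the siSlc39a2 groups without and with PE (SD, n = 3). It was close to 1 in all groups, and it rests on the division of shared reads described above. The knockdown effect was 0.10 on the log2 scale (adjusted exact permutation p = 0.01), by 0.05 without PE and 0.15 with PE. The PE effect of 0.00 (adjusted p = 0.855) averaged -0.05 in siNeg and 0.06 in siSlc39a2 cells. The ratio of Lamb1 to Lamb2 was 0.337 ± 0.0321, 0.484 ± 0.0688, 0.332 ± 0.0255 and 0.561 ± 0.0551 in the same order of groups. PE raised this ratio by 0.64 on the log2 scale (adjusted exact permutation p = 0.01), by 0.52 in siNeg and 0.76 in siSlc39a2 cells. The knockdown effect of 0.10 (adjusted p = 0.378) averaged -0.02 without PE and 0.22 with PE. The ratio of Lama2 to Lama4 was 1.29 ± 0.126, 1.00 ± 0.0417, 1.19 ± 0.0298 and 0.552 ± 0.0627. PE lowered it by -0.74 (adjusted exact permutation p = 0.01), by -0.36 in siNeg and -1.12 in siSlc39a2 cells. The knockdown lowered it by -0.49 (adjusted exact permutation p = 0.03), by -0.11 without PE and -0.87 with PE, and the difference between these values was not tested.

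**Figure D4:**
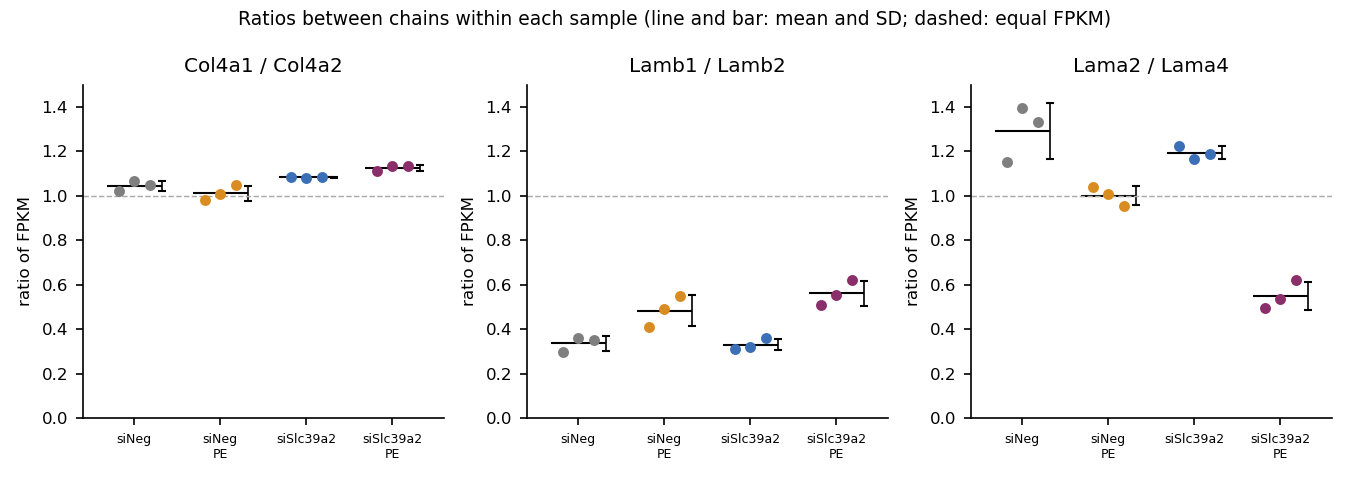
Ratio of FPKM between chains in each sample (y axis, from 0) for Col4a1 to Col4a2, Lamb1 to Lamb2 and Lama2 to Lama4 in the 4 groups (x axis), with points for samples, a line and bar for mean and SD, and a dashed line at equal FPKM. Lama2 to Lama4 falls from 1.29 in siNeg to 0.552 in siSlc39a2 PE, and Col4a1 to Col4a2 stays between 1.01 and 1.13 on average.

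Each gene was also compared with all tested genes by the root mean square difference of log2 CPM over the 12 samples, after each gene was centred on its own mean. Col4a1 and Col4a2 were nearest to each other of all 13967 genes (0.063), a distance that rests on the division of shared reads described above. Hspg2 had Col4a1 as its nearest gene (0.133). The gene nearest to Col4a5 was Matn2 (0.0987), and that nearest to Nid1 was Col5a2 (0.107). Lama2 was nearest to Sphkap (0.108), Lama4 to Srgap3 (0.072), Lamb1 to Nav2 (0.087), Lamb2 to Zmym3 (0.0524) and Lamc1 to Mthfd1l (0.0905). The median distance to all genes was between 0.453 and 0.704, and the points share libraries and depth, so these distances are descriptions. Among the 10 genes, Lama2 and Lamb1 were nearest to each other at 0.2, and Lama4 and Lamc1 at 0.203.

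The other components of the basement membrane were 31 listed genes, of which 30 were tested, and Papln was below the filter with at most 6.52 counts. Counts in this and every later list stand beside the shares over all genes. After knockdown 26.4% of all genes were lower without PE and 28.1% with PE. PE treatment gave 24.0% higher and 25.7% lower in siNeg cells, and 30.7% higher and 29.3% lower in siSlc39a2 cells. The share called higher after knockdown is not given here. Of the 30 genes, 19 were lower and 3 higher after knockdown without PE, with a median log2 fold change of -0.98. With PE 21 were lower and 4 higher, with a median of -0.85. Col15a1, a collagen at the outer face of the basement membrane, fell by 2.50 on the log2 scale without PE (adjusted p = 3.88e-08) and by 2.46 with PE. Fbln2, a fibulin that binds laminins and nidogen, changed by -2.14 (adjusted p = 2.03e-07) and Egflam (pikachurin, a dystroglycan ligand) by -2.17 without PE, and Fbln1 by -2.22 and Fras1 by -2.65 with PE. PE raised 7 and lowered 10 of the 30 in siNeg cells, and 10 and 9 in siSlc39a2 cells. Smoc2, a secreted calcium-binding protein, changed by -2.33 (adjusted p = 1.92e-07) and -2.60 with PE in siNeg and siSlc39a2 cells, and Npnt, an integrin ligand, by -1.17 in siNeg cells. Ntn1, a netrin, fell by 2.13 with PE in siSlc39a2 cells, and its interaction value was -1.14 (adjusted p = 5.83e-04), while Tinagl1 had 0.92 (adjusted p = 1.17e-04). These were the 2 genes of the list called in the interaction.

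Laminin chains outside the 10 genes did not all fall. Lamb3, the beta chain of epithelial laminin, rose with knockdown by 0.98 without PE and 0.66 with PE (adjusted p = 3.54e-06 and 6.01e-05), and with PE by 2.51 in siNeg and 2.19 in siSlc39a2 cells. It had 6.57 ± 0.786 FPKM in siNeg and 39.4 ± 3.22 in siNeg PE, and 14.2 ± 1.29 and 62.7 ± 3.30 in the siSlc39a2 groups without and with PE (SD, n = 3). The following genes were chosen after their values were seen. Lama3, the alpha chain that assembles with Lamb3, was between 0.01 and 0.11 FPKM in all samples. The collagen IV chain Col4a4 did not fall after knockdown without PE, with 15.5 ± 2.56 FPKM in siNeg and 16.0 ± 0.554 in siSlc39a2. With PE it had 27.0 ± 2.44 in siNeg PE and 22.7 ± 3.04 in siSlc39a2 PE. Col4a3 and Col4a6 had at most 0.95 and 1.06 FPKM. Lama5 changed by -1.07 (adjusted p = 7.24e-07) and Nid2, the second nidogen, by -1.58 (adjusted p = 2.11e-07) after knockdown without PE, and PE raised Nid2 by 1.08 in siNeg cells, where Nid1 did not pass. Pxdn (peroxidasin), which forms the sulfilimine bonds of collagen IV, changed by -1.37 (adjusted p = 7.47e-08) without PE and by -0.97 with PE after knockdown.

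Genes that fold, modify and export collagen were 22, all tested. After knockdown 12 were lower and 2 higher without PE, and 10 lower and 5 higher with PE (medians -0.37 and -0.10). P3h3 and P3h4, parts of a collagen-modifying complex in the endoplasmic reticulum, changed by -1.14 and -1.10 without PE (adjusted p = 6.97e-08 and 2.51e-08) and by -0.99 and -1.08 with PE, and P4ha2, a prolyl 4-hydroxylase subunit, by -0.85 without PE. P3h2, a prolyl 3-hydroxylase that acts on collagen IV, went the other way. It rose by 1.51 after knockdown with PE (adjusted p = 1.02e-06), by 1.02 with PE in siNeg cells and by 2.05 with PE in siSlc39a2 cells. Its interaction value was 1.03 (adjusted p = 0.0093), and P4ha2 (0.57), P4ha3 (0.87) and Serpinh1 (0.40), the last named after its value was seen, were the other 3 called. PE raised 2 and lowered 8 of the list in siNeg cells, among them P4ha3 at -0.86 and P4ha2 at -0.74, and raised 7 and lowered 3 in siSlc39a2 cells, with P4ha1 at 0.74 and Plod2 at 1.03.

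The receptors for laminin and collagen IV were 13, all tested. PE raised 7 and lowered 3 in siNeg cells, and raised 8 and lowered 2 in siSlc39a2 cells. Itgb1, the beta subunit shared by most of these integrins, rose with PE by 0.74 (adjusted p = 0.00195) in siNeg and 1.72 (adjusted p = 2.53e-06) in siSlc39a2 cells, and Itga6 rose by 0.80 and 1.64. Both were called in the interaction, at 0.98 (adjusted p = 0.0266) and 0.84 (adjusted p = 0.033). Itga1, a collagen-binding subunit, rose with PE by 0.67 in siNeg cells, and the tetraspanin Cd151 by 1.11 in siSlc39a2 cells. After knockdown without PE 5 were lower and 1 was higher, and with PE 3 were lower and 4 higher. Itga7, the main laminin-binding subunit of muscle, changed by -0.63 and Sdc1 by -0.97 without PE, and Bcam, a laminin receptor, by -0.86 with PE. Sdc4, a heparan sulfate proteoglycan of the cell surface, rose by 1.18 without and 1.00 with PE, and Itgb1 by 1.11 with PE.

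Per the study's methods, cardiomyocytes were separated from mesenchymal cells on a Percoll gradient. Markers of other heart cells that a culture could still hold were read beside the 10 genes. Cardiomyocyte markers, 10 genes, summed to between 17458 and 20994 FPKM over all samples. Their share of all counts was 4.76% ± 0.0617 in siNeg and 4.18% ± 0.0212 in siSlc39a2. With PE it was 4.91% ± 0.158 in siNeg PE and 4.27% ± 0.0879 in siSlc39a2 PE (SD, n = 3 each). After knockdown 5 of 10 were lower without PE and 4 with PE, led by Myh6 at -1.10 and -1.16. Myl3 was -0.35 and Ttn -0.55 without PE, and Tnni3 -0.42 and Ryr2 -0.43 with PE. With PE in siNeg cells 2 were higher, Myh7 at 0.57 among them, and 4 lower, with Myh6 at -0.95 and Pln at -0.61. In siSlc39a2 cells 3 were higher and 3 lower.

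Most fibroblast markers fell after knockdown. Of 10 markers, 8 were lower and 1 higher after knockdown, without and with PE (medians -1.27 and -1.16). Their summed level was between 2548 and 3472 FPKM in siNeg, 1834 and 2384 in siNeg PE, 1124 and 1230 in siSlc39a2, and 749 and 1050.4 in siSlc39a2 PE. Col1a1 changed by -1.68 and -1.48, Col1a2 by -1.69 and -1.47, and Dpt by -2.04 and -1.95. Of the other markers, Thy1 changed by -1.37 and -1.17 and Tcf21 by 0.34 and 0.51, while Pdgfra had 0.12 (adjusted p = 0.439) and -0.28 (adjusted p = 0.0577) and was not called. With PE in siNeg cells 6 markers were lower and 2 higher, with Col1a1 at -0.69, Col3a1 at -0.70 and Pdgfra at 0.74, and with PE in siSlc39a2 cells 5 were lower and 3 higher, with Dcn at 0.47 and Tcf21 at -0.49. Col1a1, Col3a1 and Col1a2 had mean CPM of 10756, 3534 and 1746 in siNeg, against 41.1 for Pdgfra. The fibroblast sum therefore mostly follows these collagens. It was lower with PE on average in both transfections, and the summed level of the 10 genes was higher. The part of fibroblast number or state in the basement membrane values was not tested.

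Mural cell markers, 8 genes, had 7 lower after knockdown without PE and 3 lower and 1 higher with PE. Des, which cardiomyocytes also express, made up between 94.3% and 96.7% of the mean summed level of the groups. Without Des the other 7 summed, on average, to 129 FPKM in siNeg and 109 with PE, against 82.9 after knockdown alone and 86.0 after knockdown with PE. Notch3 changed by -1.52 and -1.18, Pdgfrb by -0.95 and -0.73 and Myh11 by -0.75 without PE, and Abcc9 was -0.33 with PE. Cspg4 had an interaction value of 0.65 (adjusted p = 0.00993). PE lowered 3 of the 8 in siNeg cells, Notch3 at -0.90, Abcc9 at -0.56 and Pdgfrb at -0.51, and in siSlc39a2 cells 4 were higher, among them Cspg4 at 0.83 and Des at 0.63, and 3 lower, with Notch3 at -0.55. The part of mural cells in the basement membrane values was not tested.

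Endothelial markers summed to between 11.1 and 18.1 FPKM in all samples, and Erg, Emcn and Cldn5 had at most 3, 5 and 3 counts. Of 9 tested, 2 were lower after knockdown without PE, with Egfl7 at -0.66. With PE in both groups 0 of the 9 were called after knockdown, and their median log2 fold change was -0.28. With PE in siNeg cells 2 rose, Ecscr by 0.96 and Tek by 0.57, and 2 were lower, the endothelial adhesion molecules Pecam1 at -1.27 and Esam at -0.64. In siSlc39a2 cells 3 were higher and 1 lower with PE. Pecam1 was low throughout, with mean CPM of 0.648 in siNeg and 0.265 in siNeg PE. Macrophage markers summed to between 28.7 and 99.2 FPKM, and 4 of 8 tested were lower after knockdown without PE (Lyz2 -1.10, Csf1r -0.92 and Cd68 -0.58 among them), 2 with PE, and 4 with PE treatment in each transfection. Of 4 tested mesothelial and Schwann cell markers, 2 were lower after knockdown without PE and 2 lower and 1 higher with PE, with Msln at -2.65 and -1.91, and Sox10 had at most 4 counts.

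**Figure D5:**
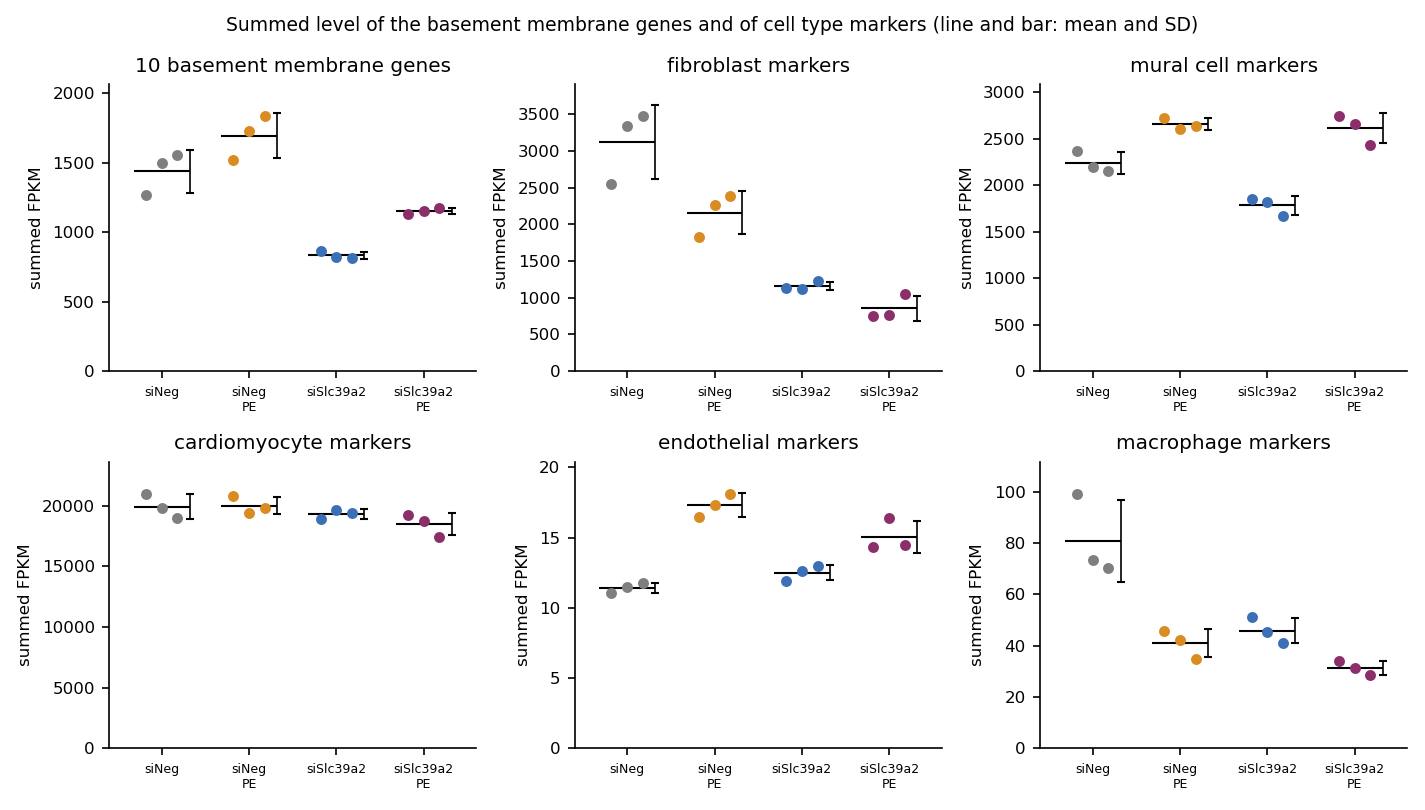
Summed FPKM (y axis, from 0) of the 10 basement membrane genes and of the marker lists of 5 cell types in every sample of the 4 groups (x axis), with a line and bar for mean and SD. Des makes up most of the mural sum, and Col1a1, Col1a2 and Col3a1 hold most fibroblast marker counts in siNeg. Fibroblast markers are lower in siSlc39a2 (at most 1230) than in siNeg (at least 2548), and endothelial markers stay at or below 18.1 in all samples.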

How the data were processed

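RNA-seq of 12 samples was read from processed values. The deposited values are the authors' expected counts, not normalized, and their FPKM values of the same genes. The submitters' processing notes name HISAT, Bowtie2 and Rnor 6.0. Their roles, the counting program and the annotation are not given in the sources used here, and 78.7% of the counts were whole numbers within 0.005. Counts were rounded, and filterByExpr (edgeR 4.0.16 in R 4.3.3) removed 4516 genes with low counts. After TMM normalization all 12 samples entered 1 model with 4 group means, which leaves 8 residual degrees of freedom. Groups and the interaction were compared by the quasi-likelihood test with Benjamini-Hochberg adjustment over all 13967 genes, with a call at 0.05. The paper's methods name limma and a log2 fold change threshold of 1, which is counted beside it. CPM were computed from TMM library sizes, and log2 CPM used a prior count of 2. Chain ratios were tested by exact permutation (scipy 1.17.1).

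Results were recomputed with RLE size factors, DESeq2 1.42.0, no filter on low counts, each comparison fitted on its groups alone, the replicate block, limma 3.58.1 on log2(FPKM + 1) and log2(FPKM + 0.1), and leaving out each sample in turn. The fits were tested on simulated data. The 10 genes and all gene lists were chosen with earlier results of these data known. Besides the 10 genes, the text names up to 3 genes of each list and comparison with the largest absolute log2 fold change among those called with a mean log2 CPM above 1, defining markers of cell types, and the nearest gene of each profile. Other names are marked as chosen after their values were seen. Some list genes that the rule names are not reported here. Genes listed under older symbols were matched by gene ID through the RefSeq table of GRCr8, and promoters were read from RefSeq on that build without mixing coordinates with the files. Samples of each group differed beyond counting noise, since chi-square divided by its degrees of freedom was from 4.77 to 35.0.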

Additional observations from a re-analysis of the deposited data

Results flagged for a closer look

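The knockdown effect on Col4a1 and Col4a2 differed between cells without and with PE, by the test of the difference itself. The value was 0.71 for Col4a1 (-1.35 without PE and -0.64 with PE; adjusted p = 0.00512) and 0.61 for Col4a2 (-1.41 and -0.80; adjusted p = 0.00462) on the log2 scale, from edgeR's quasi-likelihood test over all genes. Every siSlc39a2 sample of both genes was below every siNeg sample, and every siSlc39a2 PE sample below every siNeg PE sample. With limma on log2(FPKM + 0.1) the values were 0.63 and 0.54, at adjusted p of 0.0704 and 0.0652. Reads shared between these genes were divided by the counting program, so they are not separate results. Single samples that stand apart were not looked for by a formal test, since all groups have 3 samples.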

How the results depend on the processing

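Of the 50 values (10 genes in 4 comparisons and the interaction), 33 were called, and 27 of these kept direction and call under every alternative that was run. No called value changed sign. Values of Lamb1 that were not called changed sign. With 1 sample left out, its log2 fold change with PE was -0.0588 (without siNeg replicate 1) to 0.0914 in siNeg cells and -0.0431 to 0.0135 (without siSlc39a2 PE replicate 2) in siSlc39a2 cells, where both limma fits gave 0.01. Its interaction was -0.0969 to 0.0532 (without siNeg replicate 1).

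Requiring an absolute log2 fold change above 1 left 5 genes lower after knockdown and 1 with PE, 0 higher and 0 lower with PE in siNeg cells, 1 higher and 0 lower with PE in siSlc39a2 cells, and 0 in the interaction. Lama2 with PE in siSlc39a2 cells was not called by either limma fit (adjusted p = 0.0616 and 0.0762), which left 1 gene lower. Lamc1 after knockdown was not called without the filter (0.0531) or with the groups alone (0.0534), nor was Col4a2 with PE in siNeg cells with the groups alone (0.0741), while limma on log2(FPKM + 1) called Col4a1 there (0.0416). In the interaction DESeq2 called 372 genes higher and 459 lower, against 241 and 263, and Col4a5 as a further gene higher (0.022) and Lama2 lower (0.0347). Limma on log2(FPKM + 1) called 469 lower and 1 of the 10 lower (Lamb2), and limma on log2(FPKM + 0.1) called 0 of the 10 higher and 1 lower. The cause was not tested.

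Leaving out 1 sample gave 9 to 10 genes lower after knockdown and 8 to 9 with PE, 2 to 4 higher and 1 to 2 lower with PE in siNeg cells, 6 higher and 1 to 2 lower with PE in siSlc39a2 cells, and 2 to 3 higher and 0 lower in the interaction. Over all genes the interaction then had 127 to 267 higher and 128 to 344 lower calls.

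Same-numbered samples correlated between -0.0904 and 0.32 in their deviations from group means. Between siNeg PE and siNeg these values (0.315, 0.0535 and 0.206) exceeded those of other numbers (-0.172, -0.0196 and -0.0926). Elsewhere only replicate 1 of siSlc39a2 against siNeg (-0.0107 against 0.00522) and replicate 2 of siSlc39a2 PE against siSlc39a2 (-0.0904 against 0.0438) were lower. Numbers were not taken to pair samples in the main fit, and the cause of these correlations was not tested. With the replicate block, 2 of the 10 genes were lower with PE in siNeg cells (Nid1 added, adjusted p = 0.015), and the interaction had 4 genes higher (Col4a5, adjusted p = 0.00841, and Nid1, 0.0224, added) and 1 lower (Lama2, 0.0238), with 536 and 517 of all genes. For the chain ratios the block allows 64 arrangements, with a smallest p of 0.0313, and the adjusted p became 0.0625 for Col4a1 to Col4a2 (0.10), for Lamb1 to Lamb2 (0.64) and for PE on Lama2 to Lama4 (-0.74), and 0.0938 for knockdown on the last (-0.49). Nid1 was also called with PE in siSlc39a2 cells (0.0244), and no other call changed with the block.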

Other observations

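Enzymes that build or edit the heparan sulfate chains carried by perlecan and agrin were 20 listed genes, all tested. After knockdown 9 were lower (26.4% of all genes) and 3 higher without PE, and 10 lower (28.1% of all) and 5 higher with PE. Ndst1, which begins the sulfation of the chain, changed by -0.72 (adjusted p = 1.9e-06), while Xylt1 and B3galt6, which build the linker to the core protein, rose by 1.03 (adjusted p = 3.37e-04) and 1.20 (adjusted p = 1.64e-04) without PE. With PE, B3galt6 rose by 0.86 and Ext1, a polymerase of the chain, by 0.75 after knockdown. PE raised 2 and lowered 8 of the 20 in siNeg cells, with Hs2st1 at 0.60, Glce at 0.54 and Hs3st1 at -0.66, and raised 6 and lowered 8 in siSlc39a2 cells, with Glce at 0.81, Hs2st1 at 0.77 and Hs3st1 at -1.09.

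Genes of the dystrophin complex and of dystroglycan glycosylation, through which muscle cells bind laminin, were 22, all tested. After knockdown 5 were higher and 6 lower (26.4% of all genes lower) without PE, and 8 higher and 5 lower (28.1% of all lower) with PE. PE raised 7 (24.0% of all genes) and lowered 5 (25.7%) in siNeg cells and raised 11 (30.7%) and lowered 4 (29.3%) in siSlc39a2 cells. Sntb1, a syntrophin, rose with PE by 1.45 (adjusted p = 1.36e-05) in siNeg and 2.16 (adjusted p = 2.03e-07) in siSlc39a2 cells, and Dmd (dystrophin) rose by 1.37 in siSlc39a2 cells. Sgca, a sarcoglycan, changed by -0.74 with PE in siNeg cells. Pomt2, a mannosyltransferase that acts on dystroglycan, changed by -0.84 after knockdown without PE. Dtna, a dystrobrevin, was called in the interaction at 0.65 (adjusted p = 0.0037).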
